A study of Mus musculus with 12 samples.

Results

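The genes described here are the collagen hydroxylases and chaperones, 10 genes chosen by symbol for what their proteins do to newly made collagen: the prolyl 4-hydroxylase subunits P4ha1, P4ha2 and P4ha3, the lysyl hydroxylases Plod1, Plod2 and Plod3, the chaperone Serpinh1, the hydroxylase partner Crtap, and the procollagen C-proteinase enhancers Pcolce and Pcolce2. The symbols were matched to Ensembl identifiers, and all 10 were found among the 49585 genes counted. The filter of at least 0.5 counts in 1000000 (CPM) in at least 1 library kept 18648 genes, and all 10 passed it. RNA was sequenced from 4 populations of stromal cells sorted from untreated wild-type male C57BL/6 mice aged 8 to 10 weeks, with 3 libraries per population and 2000 cells per library. The Itga8+ MSCs were Itga8+Alcam+Sca-1- cells, the Itga8- BLCs (bone-lining cells, labelled as osteoblasts) were Itga8-Alcam+Sca-1- cells, and the Sca-1+ MSCs were Alcam-Sca-1+ cells. These 3 were sorted as CD45-Ter119-CD31- cells from collagenase-digested bone fragments whose marrow had been flushed out, whereas the CD51+CD140a+ MSCs were sorted from the flushed marrow after digestion with Accumax. The compartment, the enzyme and the population can therefore not be told apart in any comparison with CD51+CD140a+ MSCs. No source used here says whether the 3 libraries of a population came from separate mice, so the p-values below measure the spread between these libraries, which may be technical. Nor can fewer expressing cells be told from less RNA per cell in bulk libraries.

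Collagen chains are modified in the endoplasmic reticulum while they are being made. Prolyl 4-hydroxylases act on proline to make the triple helix stable at body temperature, and lysyl hydroxylases act on lysine to prepare the sites of sugar attachment and of later crosslinks. Chaperones then hold the folded helix, and once procollagen has left the cell its C-terminal propeptide is removed by a proteinase that enhancer proteins speed up. In bone, cartilage and tendon, where cells secrete large amounts of fibrillar collagen, loss of several of these proteins gives brittle bones or lax joints.

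The libraries held 17580677 to 31332475 counts, and the 10 most abundant genes took 12.2% to 36.7% of them. The sorted identities were seen in part in the transcripts. Itga8 was at 73.5, 35.2 and 199 CPM in the Itga8+ MSC libraries against 0.398 to 4.17 CPM in Itga8- BLCs, but it was also at 53.1 to 82.9 CPM in CD51+CD140a+ MSCs. Ly6a, which encodes Sca-1, was at 611 to 658 CPM in Sca-1+ MSCs and at no more than 35.7 CPM in any other library, and Alcam was at 1.29 to 5.81 CPM in the 6 libraries sorted as Alcam+ against at most 0.221 CPM in the other 6. Pdgfra, which encodes CD140a, was at 681 to 867 CPM in CD51+CD140a+ MSCs, but at 734 to 1019 CPM in the Sca-1+ libraries, with 5.35 to 148 CPM in the rest. The osteoblast gene Bglap was at 1753, 1175 and 6980 CPM in Itga8- BLCs and at no more than 15.0 CPM elsewhere, but Ibsp, which encodes bone sialoprotein, was at 6817 to 16043 CPM in CD51+CD140a+ MSCs against 2627 to 4679.5 CPM in Itga8- BLCs. Summed over 10 osteoblast genes, Itga8- BLCs (10077 to 28682 CPM) and CD51+CD140a+ MSCs (9509 to 19969 CPM) overlapped, above Itga8+ MSCs (1959 to 2718 CPM) and Sca-1+ MSCs (2778 to 4394 CPM). Lepr, which marks marrow stroma, was at 5725 to 6737 CPM in CD51+CD140a+ MSCs and at no more than 214 CPM elsewhere. Itga8+ MSC replicate 2 stood apart from its group, with 1954 CPM of the neutrophil gene S100a8 against 81.8 and 144 CPM, and with 2567 CPM summed over 7 erythroid genes against 220 and 433 CPM. Summed over 10 myeloid and lymphoid genes, blood-cell transcripts were also higher in every library of Itga8+ MSCs (2563 to 12793 CPM) and Itga8- BLCs (4751 to 7207 CPM) than in Sca-1+ MSCs (939 to 2042 CPM) and CD51+CD140a+ MSCs (1073 to 1694 CPM), and Cd3e alone of the 10 was at or under 3 counts in all groups. The summed CPM of 7 cartilage markers was 80148, 16124 and 126345 in Itga8+ MSCs and 46859, 80054 and 15657 in Itga8- BLCs, so that Itga8+ replicate 2 and Itga8- replicate 3 were the low libraries, whereas Sca-1+ MSCs had 9245 to 9872 CPM and CD51+CD140a+ MSCs had 574 to 1460 CPM. For 7 tendon genes the CD51+CD140a+ libraries had a sum of 154 to 291 CPM, with Scx and Kera at or under 3 counts, against 6482 to 9566 CPM (Sca-1+ MSCs), 5029 to 13875 CPM (Itga8- BLCs) and 14038 to 28989 CPM (Itga8+ MSCs). These sums move with the differences between populations given below, and their part in the results was not tested, but each call of the 10 genes that changed without Itga8+ replicate 2 is also given without it.

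P4ha1 and P4ha2, which carry the catalytic site of prolyl 4-hydroxylase in most tissues, were highest in Itga8- BLCs, and P4ha3, another form of that subunit, was highest in Sca-1+ MSCs. All 3 were lowest in CD51+CD140a+ MSCs. P4ha1 (ENSMUSG00000019916, chr10:59323296-59373304, plus strand, build GRCm38) was at 409, 647 and 742 CPM in Itga8- BLCs, at 315, 323 and 454 CPM in Itga8+ MSCs, at 192, 186 and 191 CPM in Sca-1+ MSCs and at 91.2, 88.6 and 101 CPM in CD51+CD140a+ MSCs. The libraries of Itga8- BLCs and Itga8+ MSCs overlapped, and each step further down that order was free of overlap. On the log2 scale P4ha1 was higher in Itga8- BLCs than in Sca-1+ MSCs by 1.66 (SE 0.28, adjusted p = 0.00154) and than in CD51+CD140a+ MSCs by 2.68 (SE 0.29, adjusted p = 3.97e-05), where the adjusted p is that of edgeR's quasi-likelihood test over all 18648 genes and a gene was called when it was under 0.1 with a fold change above 2. The step from Itga8+ to Sca-1+ MSCs was 0.94 (95% interval 0.35 to 1.54, adjusted p = 0.0357) and was just short of 2-fold. It rose to 1.01 without Itga8+ replicate 2 and to 1.04 without Itga8+ replicate 1, and was then called. The step from Sca-1+ to CD51+CD140a+ MSCs was called at 1.02 (adjusted p = 0.022), but it dropped under 2-fold without CD51+CD140a+ replicate 1 (1.00) or replicate 2 (0.98), with no filter beyond 1 count (1.00) and with library totals as the only scaling (0.88).

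P4ha2 (ENSMUSG00000018906, chr11:54100095-54131665, plus strand) was at 447, 427 and 668 CPM in Itga8- BLCs. It was at 313, 219 and 240 CPM in Itga8+ MSCs and at 280, 230 and 244 CPM in Sca-1+ MSCs, where the libraries overlapped (log2 difference 0.03, 95% interval -0.57 to 0.63). It was at 44.2, 68.0 and 59.3 CPM in CD51+CD140a+ MSCs, below every other library. Itga8- BLCs lay above Itga8+ MSCs with no overlap, yet the difference of 1.00 on the log2 scale (95% interval 0.39 to 1.61, adjusted p = 0.0967) was just short of 2-fold. The difference between Itga8- BLCs and Sca-1+ MSCs was just past it, at 1.03 (adjusted p = 0.0216), and this call was lost without Itga8+ replicate 2 (0.99), Itga8+ replicate 3 (0.99), Itga8- replicate 3 (0.80) or Sca-1+ replicate 2 (0.97) and with library totals alone (0.81). P4ha2 was 4.39 to 8.99 times as high in the 3 bone populations as in CD51+CD140a+ MSCs, and these 3 calls held in all 21 alternative analyses.

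P4ha3 (ENSMUSG00000051048, chr7:100285520-100319699, plus strand) ran in another order. It was at 109, 123 and 115 CPM in Sca-1+ MSCs, at 89.2, 56.9 and 78.2 CPM in Itga8+ MSCs and at 53.9, 32.9 and 19.5 CPM in Itga8- BLCs. In CD51+CD140a+ MSCs it was at 1.20, 3.50 and 1.64 CPM, or 44 to 122 reads, where a count of 0 would allow 3 reads, 0.0819 to 0.180 CPM over the 12 libraries. Such limits cover counting error only. No population overlapped with another. P4ha3 was 3.26-fold lower in Itga8- BLCs than in Sca-1+ MSCs (log2 difference -1.71, SE 0.43, adjusted p = 0.0166), the reverse of P4ha1 and P4ha2 in the same libraries, and it was 16.7-fold to 54.6-fold lower in CD51+CD140a+ MSCs than in the other 3 populations. The step from Sca-1+ to Itga8+ MSCs (0.63, 95% interval -0.30 to 1.55) and that from Itga8+ MSCs to Itga8- BLCs (1.08, 95% interval 0.14 to 2.01, adjusted p = 0.309) were not called.

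**Figure D1:**
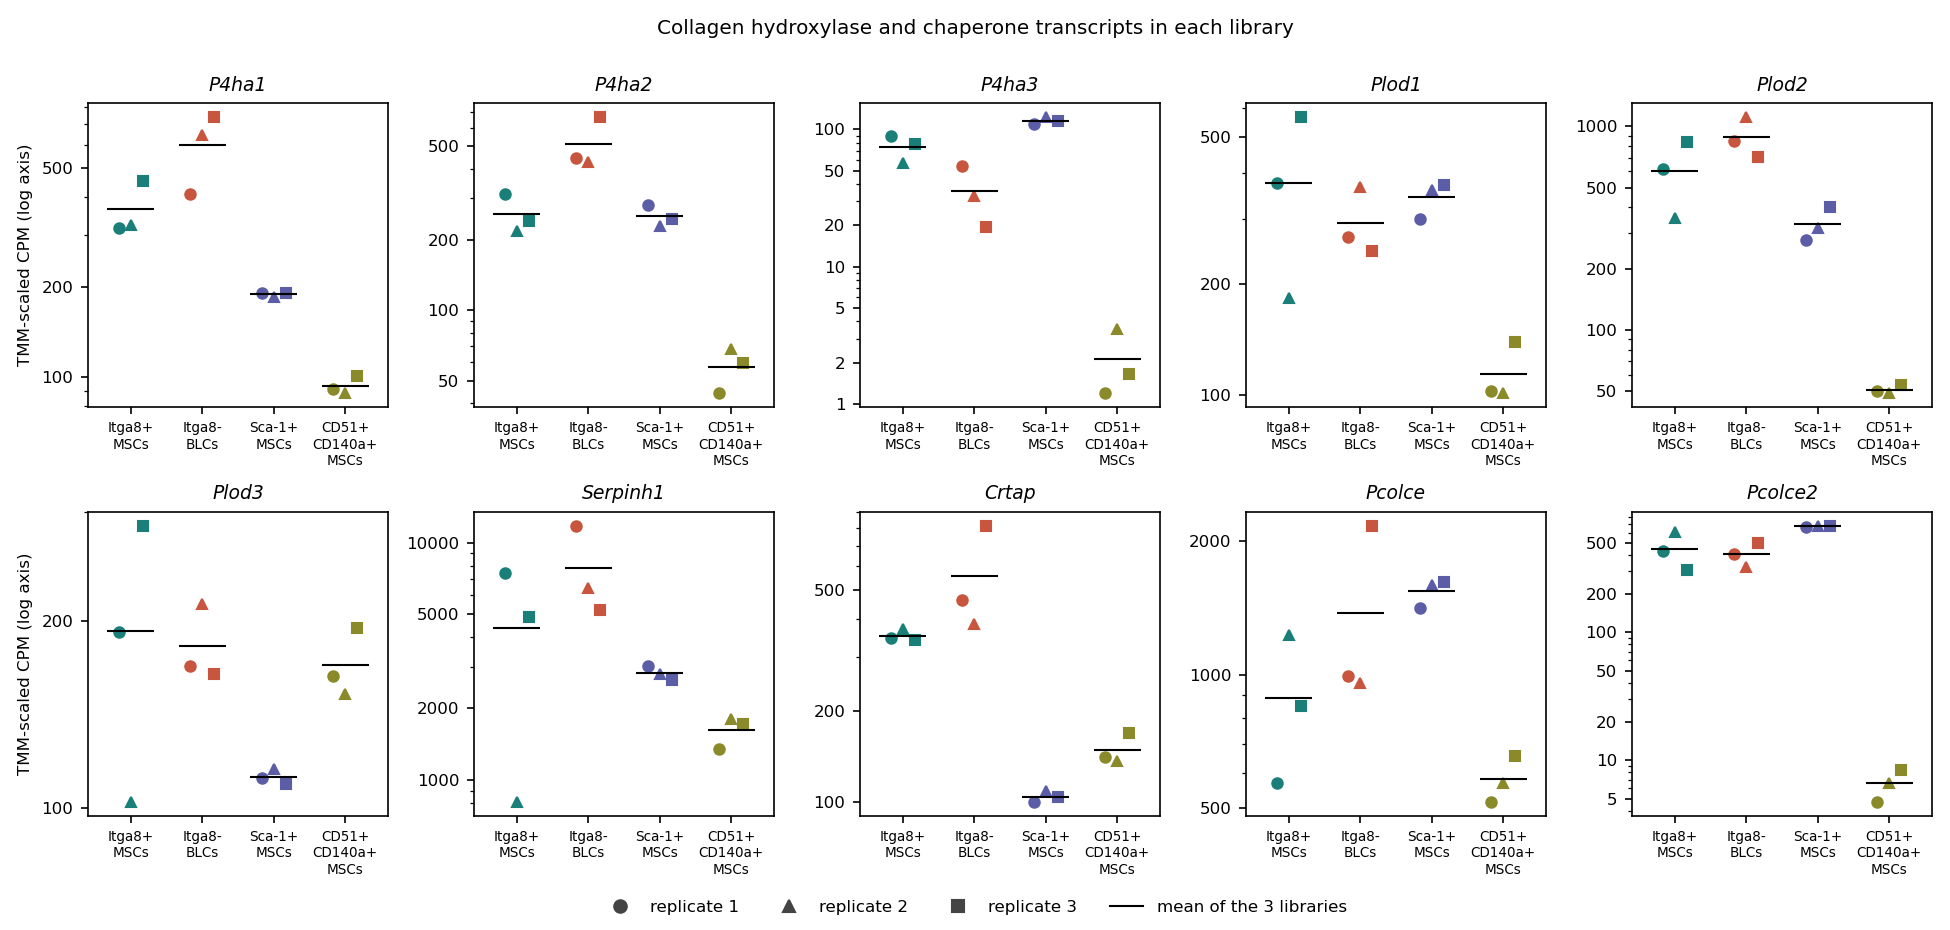
TMM-scaled CPM (log axis) of the 10 genes in each of the 12 libraries, grouped by sorted population, with a marker shape for each replicate and a black bar at the mean of 3 libraries. P4ha1, P4ha2 and Plod2 are highest in Itga8- BLCs, P4ha3 and Pcolce2 in Sca-1+ MSCs, and Itga8+ MSC replicate 2 (triangle) is the lowest of all libraries for Serpinh1, at 809 CPM.

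The make-up of the prolyl 4-hydroxylase transcripts, which does not depend on the scaling between libraries, was also compared. In transcripts per 1000000 (TPM, which corrects for gene length), P4ha3 made up 27.5%, 32.4% and 30.0% of the summed TPM of the 3 genes in Sca-1+ MSCs and 18.3%, 13.8% and 14.4% in Itga8+ MSCs. It made up 9.13%, 4.44% and 2.12% in Itga8- BLCs and 1.29%, 3.32% and 1.52% in CD51+CD140a+ MSCs, and only these last 2 populations overlapped. P4ha1 took 64.2% to 74.8% in CD51+CD140a+ MSCs, where its level was lowest, above the 49.3% to 63.5% of Itga8+ MSCs and the 36.9% to 37.9% of Sca-1+ MSCs, and it overlapped with the 52.8% to 66.6% of Itga8- BLCs. The share of P4ha2 overlapped in all 6 comparisons of populations, with a range of 22.1% to 38.1% over the 12 libraries.

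The 250 bases before the RefSeq start sites (GRCm38.p6) of these 3 genes are printed because P4ha1 and P4ha2 ran together across the populations and P4ha3 did not. Capitals mark every ACGTG and CCACG on either strand, which are the cores of sites bound by hypoxia-inducible factors and by the unfolded protein response. The stretches, all on the plus strand, lie at chr10:59323046-59323295 for P4ha1, at chr11:54100674-54100923 for P4ha2 and at chr7:100285270-100285519 for P4ha3. The start that RefSeq gives for P4ha2 lies inside the longer GENCODE gene.
P4ha1: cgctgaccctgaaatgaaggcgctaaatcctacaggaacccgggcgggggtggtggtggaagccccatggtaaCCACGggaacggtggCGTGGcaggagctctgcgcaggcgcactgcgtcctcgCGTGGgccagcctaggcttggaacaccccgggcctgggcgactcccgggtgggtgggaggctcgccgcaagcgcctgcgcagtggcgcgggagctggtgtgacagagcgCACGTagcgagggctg
P4ha2: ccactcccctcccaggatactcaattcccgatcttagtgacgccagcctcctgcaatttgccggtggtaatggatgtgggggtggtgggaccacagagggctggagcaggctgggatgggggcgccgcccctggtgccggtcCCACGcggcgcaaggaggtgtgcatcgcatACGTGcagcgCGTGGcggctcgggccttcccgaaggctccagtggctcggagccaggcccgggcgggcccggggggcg
P4ha3: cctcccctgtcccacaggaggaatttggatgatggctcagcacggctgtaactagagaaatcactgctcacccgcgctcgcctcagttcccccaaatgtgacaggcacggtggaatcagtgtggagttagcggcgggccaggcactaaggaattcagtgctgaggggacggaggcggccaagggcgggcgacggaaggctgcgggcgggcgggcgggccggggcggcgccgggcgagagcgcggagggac
ACGTG was found 1 time and CCACG 3 times before P4ha1, ACGTG 1 time and CCACG 2 times before P4ha2, and neither before P4ha3. Of 32851 mouse promoters of this length, 16.6% held ACGTG and 28.3% held CCACG, against 4 and 5 of the 9 collagen hydroxylase and chaperone genes in the promoter table. Both motifs hold a CG pair, and the 9 promoters had 53.6% to 70.0% GC, all above the median of 52.4% for all promoters. They were not compared with promoters of like GC. CCAAT was searched in the same way and was found in 33.8% of all promoters and in 1 of the 9, that of Plod3. Where matches of different motifs overlapped, each was counted. The remaining gene, Plod2, is named only. These matches are a description of letters and say nothing of binding.

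Among the lysyl hydroxylases, Plod2, which hydroxylates the telopeptide lysines that go into bone-type crosslinks, differed most. It was at 847, 1112 and 708 CPM in Itga8- BLCs, at 619, 354 and 837 CPM in Itga8+ MSCs and at 277, 317 and 400 CPM in Sca-1+ MSCs. In CD51+CD140a+ MSCs it was at 49.9, 48.9 and 53.9 CPM. Only the last population lay clear of all others, 6.51-fold below Sca-1+ MSCs (log2 difference 2.70, SE 0.34, adjusted p = 0.000145), 11.8-fold below Itga8+ MSCs and 17.5-fold below Itga8- BLCs, and all 3 calls held in the 21 alternatives. Itga8- BLCs were also above Sca-1+ MSCs (2.68-fold, adjusted p = 0.00975). Itga8+ MSCs lay between them, 1.82-fold above Sca-1+ MSCs (log2 0.86, 95% interval 0.16 to 1.56, adjusted p = 0.0891), a difference under the fold threshold that reached 1.12 and was called without Itga8+ replicate 2. Against Itga8- BLCs their log2 difference was -0.56 (95% interval -1.26 to 0.14). Plod2 (ENSMUSG00000032374, chr9:92542223-92608428, plus strand) shares 6.42% of its exon length with Gm38391 on the opposite strand, and no source used here says whether strand was used in counting.

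Plod1, which acts on lysines of the helix, was called only in the comparisons with CD51+CD140a+ MSCs. Its levels were 377, 184 and 567 CPM in Itga8+ MSCs, 300, 360 and 372 CPM in Sca-1+ MSCs and 269, 366 and 246 CPM in Itga8- BLCs. These 3 populations overlapped, with log2 differences of 0.13 to 0.36 in size and 95% intervals that reached no further than 1.14 in either direction. In CD51+CD140a+ MSCs Plod1 was at 103, 101 and 139 CPM, below every other library and 2.56-fold to 3.28-fold lower (adjusted p from 0.00495 to 0.0157). The smallest of these, against Itga8- BLCs (log2 1.36), came to 1.00 with library totals alone and was then not called. Plod1 (ENSMUSG00000019055) lies at chr4:147909753-147936767 on the minus strand.

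Plod3, which both hydroxylates lysine and adds the sugars, was the 1 gene of the 10 with no call in any of the 6 comparisons. It was at 192, 102 and 286 CPM in Itga8+ MSCs, at 170, 213 and 164 CPM in Itga8- BLCs, at 163, 153 and 195 CPM in CD51+CD140a+ MSCs and at 112, 116 and 109 CPM in Sca-1+ MSCs. The libraries of CD51+CD140a+ MSCs lay inside the range of Itga8+ MSCs and overlapped with that of Itga8- BLCs, with log2 differences of 0.18 (95% interval -0.53 to 0.89) from Itga8+ MSCs and 0.10 (95% interval -0.61 to 0.81) from Itga8- BLCs, and neither interval shows that the levels were alike. Sca-1+ MSCs were lowest and overlapped with Itga8+ MSCs only through Itga8+ replicate 2, without which Plod3 was called higher in Itga8+ than in Sca-1+ MSCs (log2 1.07 against 0.78 with all libraries). Plod3 (ENSMUSG00000004846, chr5:136987019-136996648, plus strand) shares 11.7% of its exon length with Znhit1 on the opposite strand, and 90.2% of its 50-base words occur in no other gene.

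As shares of the family, Plod2 made up 67.0%, 67.1% and 64.4% of the summed TPM of the 3 lysyl hydroxylases in Itga8- BLCs, 53.9%, 56.8% and 51.4% in Itga8+ MSCs and 42.7%, 42.7% and 48.4% of it in Sca-1+ MSCs. In CD51+CD140a+ MSCs it made up 15.3%, 15.7% and 13.6%, so that no 2 populations overlapped in the share of Plod2. Plod3 was the largest part in CD51+CD140a+ MSCs, at 59.6%, 58.4% and 58.5%, against 15.4% to 20.9% in the other 9 libraries. The ratio of Plod2 to Plod1 in TPM was 3.61 to 3.95 in Itga8- BLCs, 1.85 to 2.41 in Itga8+ MSCs and 1.11 to 1.35 in Sca-1+ MSCs. The CD51+CD140a+ libraries had ratios of 0.486 to 0.608. Itga8+ replicate 2, at 2.41, lay with its group in this ratio, although its Plod1 and Plod2 levels were the lowest of the 3.

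**Figure D2:**
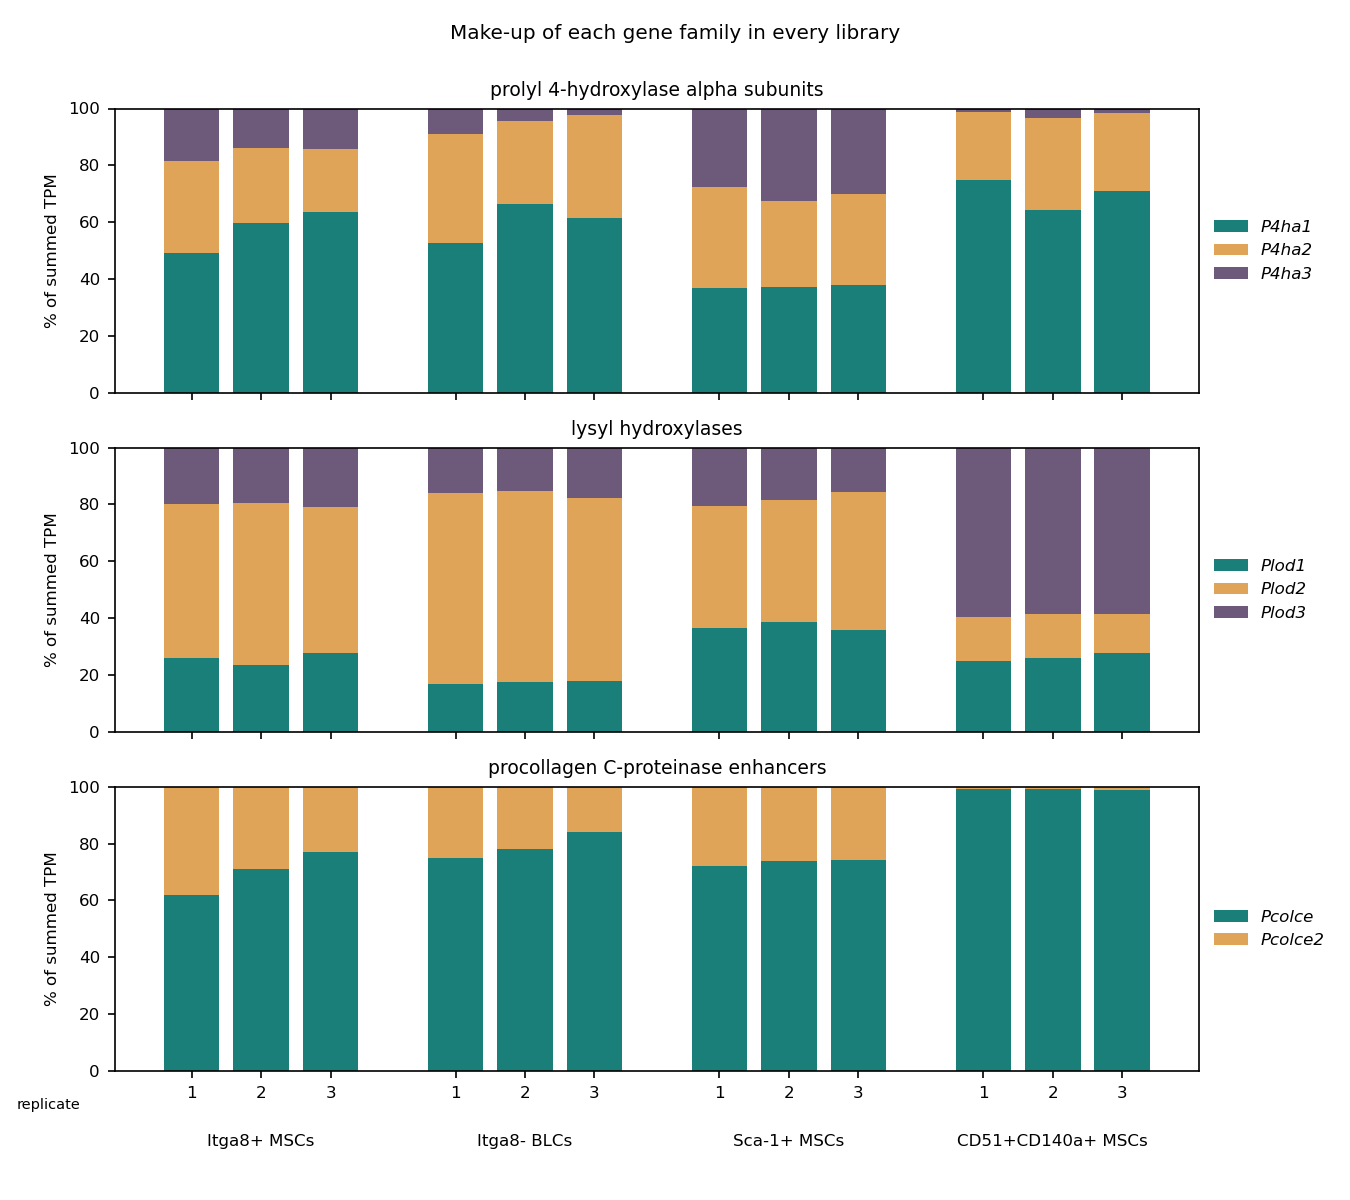
Share of each gene in the summed TPM of its family (%, stacked bars), for the prolyl 4-hydroxylase alpha subunits, the lysyl hydroxylases and the procollagen C-proteinase enhancers, with 1 bar for each replicate of each population. The bars of a population resemble each other, P4ha3 takes 27.5% to 32.4% in Sca-1+ MSCs, Plod3 takes 58.4% to 59.6% in CD51+CD140a+ MSCs, and Pcolce2 takes 0.749% to 1.05% there.

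Serpinh1 encodes HSP47, a chaperone that binds only procollagen and prevents its helices from clumping. It was the most abundant of the 10 per length in all 12 libraries, and ranked between 3 and 166 among 18606 tested genes with a known length. Serpinh1 was at 11803, 6409 and 5199 CPM in Itga8- BLCs, at 7419, 809 and 4869 CPM in Itga8+ MSCs, at 3011, 2790 and 2643 CPM in Sca-1+ MSCs and at 1350, 1804 and 1727 CPM in CD51+CD140a+ MSCs. Itga8+ replicate 2 was below every library of the other populations, whereas the other 2 Itga8+ libraries were above all of Sca-1+ and CD51+CD140a+ MSCs. Serpinh1 was higher in Itga8- BLCs than in CD51+CD140a+ MSCs by 2.26 on the log2 scale (SE 0.60, adjusted p = 0.0145), a call that held in the 21 alternatives. The other 2 calls did not. The difference of Itga8- BLCs from Sca-1+ MSCs (log2 1.47, 95% interval 0.19 to 2.75, adjusted p = 0.0951) was lost in 10 of 12 fits that left out 1 library and kept only without Itga8+ replicate 1 or 2, with log2 differences from 1.00 without Itga8- replicate 1 to 1.70 without Itga8- replicate 3. The difference of Itga8+ from CD51+CD140a+ MSCs (log2 1.42, 95% interval 0.15 to 2.70, adjusted p = 0.086) was lost in 8 of the 12, with a lowest value of 0.80 (adjusted p = 0.325) without Itga8+ replicate 1. It rose to 1.94 (adjusted p = 0.00151) without Itga8+ replicate 2, and Serpinh1 was then also called in Itga8+ over Sca-1+ MSCs (log2 1.11, adjusted p = 0.0507, against 0.63 with a 95% interval of -0.62 to 1.89 with all libraries). Serpinh1 (ENSMUSG00000070436) lies at chr7:99345376-99353239 on the minus strand.

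Crtap encodes the non-enzymatic part of the prolyl 3-hydroxylation complex. It was at 462, 386 and 815 CPM in Itga8- BLCs, at 347, 372 and 341 CPM in Itga8+ MSCs, at 141, 137 and 168 CPM in CD51+CD140a+ MSCs and at 100, 109 and 103 CPM in Sca-1+ MSCs. No population overlapped with another, and Crtap was the only one of the 10 genes with its lowest level clear of all others in Sca-1+ MSCs. It was higher in Itga8+ than in Sca-1+ MSCs by 3.40-fold (log2 1.76, SE 0.29, adjusted p = 0.00205), the 1 difference between these 2 populations that passed both thresholds for any of the 10 genes. It was higher in Itga8- BLCs than in Sca-1+ MSCs by 5.32-fold and than in CD51+CD140a+ MSCs by 3.73-fold, and higher in Itga8+ than in CD51+CD140a+ MSCs by 2.38-fold (adjusted p from 0.000245 to 0.00708). These 4 calls held in the 21 alternatives. The steps between Itga8- BLCs and Itga8+ MSCs (log2 0.65, 95% interval 0.03 to 1.27) and between CD51+CD140a+ and Sca-1+ MSCs (log2 0.51, 95% interval -0.11 to 1.13) were not called. Crtap (ENSMUSG00000032431) lies at chr9:114375134-114390675 on the minus strand.

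Pcolce2 and Pcolce encode extracellular proteins that help BMP1-type proteinases remove the C-propeptide. Pcolce2 gave the largest differences of the 10 genes. It was at 667, 677 and 681 CPM in Sca-1+ MSCs, at 428, 604 and 305 CPM in Itga8+ MSCs and at 406, 325 and 497 CPM in Itga8- BLCs, but at 4.73, 6.59 and 8.41 CPM in CD51+CD140a+ MSCs. Pcolce2 was thus 103-fold higher in Sca-1+ MSCs (log2 6.68, SE 0.40, adjusted p = 1.17e-06), 67.8-fold higher in Itga8+ MSCs and 62.3-fold higher in Itga8- BLCs than in CD51+CD140a+ MSCs, in all alternatives. Sca-1+ MSCs lay above Itga8+ MSCs and Itga8- BLCs with no overlap, by 0.60 (95% interval -0.08 to 1.27) and 0.72 (95% interval 0.04 to 1.40) on the log2 scale, and neither difference was called. Pcolce2 (ENSMUSG00000015354) lies at chr9:95637601-95698096 on the plus strand.

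Pcolce moved far less. It was at 1413, 1596 and 1619 CPM in Sca-1+ MSCs, at 996, 959 and 2171 CPM in Itga8- BLCs, at 572, 1232 and 852 CPM in Itga8+ MSCs and at 517, 569 and 657 CPM in CD51+CD140a+ MSCs. Neighbours in that order overlapped at every step. Compared with CD51+CD140a+ MSCs, Pcolce was higher in Sca-1+ MSCs (2.65-fold, adjusted p = 0.0192) and in Itga8- BLCs (2.37-fold, adjusted p = 0.0235), the second of which rested on Itga8- replicate 3, since without it the log2 difference fell from 1.24 to 0.75 and the adjusted p rose to 0.101; it was also lost with library totals alone (0.87). In Itga8+ MSCs over CD51+CD140a+ MSCs the log2 difference of Pcolce was 0.61 (95% interval -0.18 to 1.40) and was not called. Without Itga8+ replicate 2, Pcolce was called lower in Itga8+ than in Sca-1+ MSCs, at -1.13 against -0.80 with all libraries. As shares of the TPM of the pair, Pcolce2 was 15.9% to 38.2% in the 9 bone libraries and 0.749%, 0.948% and 1.05% in CD51+CD140a+ MSCs. Pcolce (ENSMUSG00000029718) lies at chr5:137605103-137613784 on the minus strand, and 2.93% of its exon length overlaps Fbxo24 on the same strand.

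Read by comparison, 31 of the 60 tests of the 10 genes were called. Between Itga8+ MSCs and Itga8- BLCs none was called in either direction, in a comparison in which 1.66% of all genes were called higher and 2.16% lower in Itga8+ MSCs. DESeq2 and limma-trend also called none of the 10, and at an unadjusted p under 0.05 edgeR gave 1 higher (P4ha3) and 3 lower (P4ha1, P4ha2 and Crtap). Between Itga8+ and Sca-1+ MSCs 1 was called higher and none lower (12.9% and 8.89% of all genes; 1 was lower at an unadjusted p under 0.05), which became 5 higher and 1 lower without Itga8+ replicate 2 and 2 higher without Itga8+ replicate 1. Shares of all genes, here and below, are those of the fit of all 12 libraries. The shares in fits without a library are not given, so shifts of these counts cannot be set beside them. Between Itga8- BLCs and Sca-1+ MSCs 5 were higher (P4ha1, P4ha2, Plod2, Serpinh1 and Crtap) and 1 lower (P4ha3), where 14.5% of all genes were higher and 11.9% lower. Against CD51+CD140a+ MSCs 8 were higher and none lower in Itga8+ MSCs (21.2% and 14.3% of all genes), 9 and none in Itga8- BLCs (20.4% and 14.9%), and 7 and none in Sca-1+ MSCs (11.2% and 9.3%). In none of these 3 was a gene lower by DESeq2 or limma-trend or, in edgeR, at an unadjusted p under 0.05. The 3 share the CD51+CD140a+ libraries and are not independent of each other.

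The median log2 difference of the 10 genes was 1.84, 2.47 and 1.50 in those 3 comparisons, beside 0.18, 0.09 and -0.0025 for all genes tested. It was 0.87 for Itga8- BLCs over Sca-1+ MSCs (all genes 0.12), 0.38 for Itga8+ over Sca-1+ MSCs (all genes 0.16) and -0.60 for Itga8+ MSCs over Itga8- BLCs (all genes 0.08). Scaling by library totals alone moved the median of all genes to 0.34 for Itga8+ MSCs over Itga8- BLCs, to -0.07 for Itga8- BLCs over Sca-1+ MSCs and to -0.24 for Itga8- BLCs over CD51+CD140a+ MSCs. The medians of the 10 genes moved with it, to -0.34, 0.65 and 2.13, and none of the 31 calls changed its direction under any alternative. Of the 31 calls, 25 were made in all 21 alternatives.

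**Figure D3:**
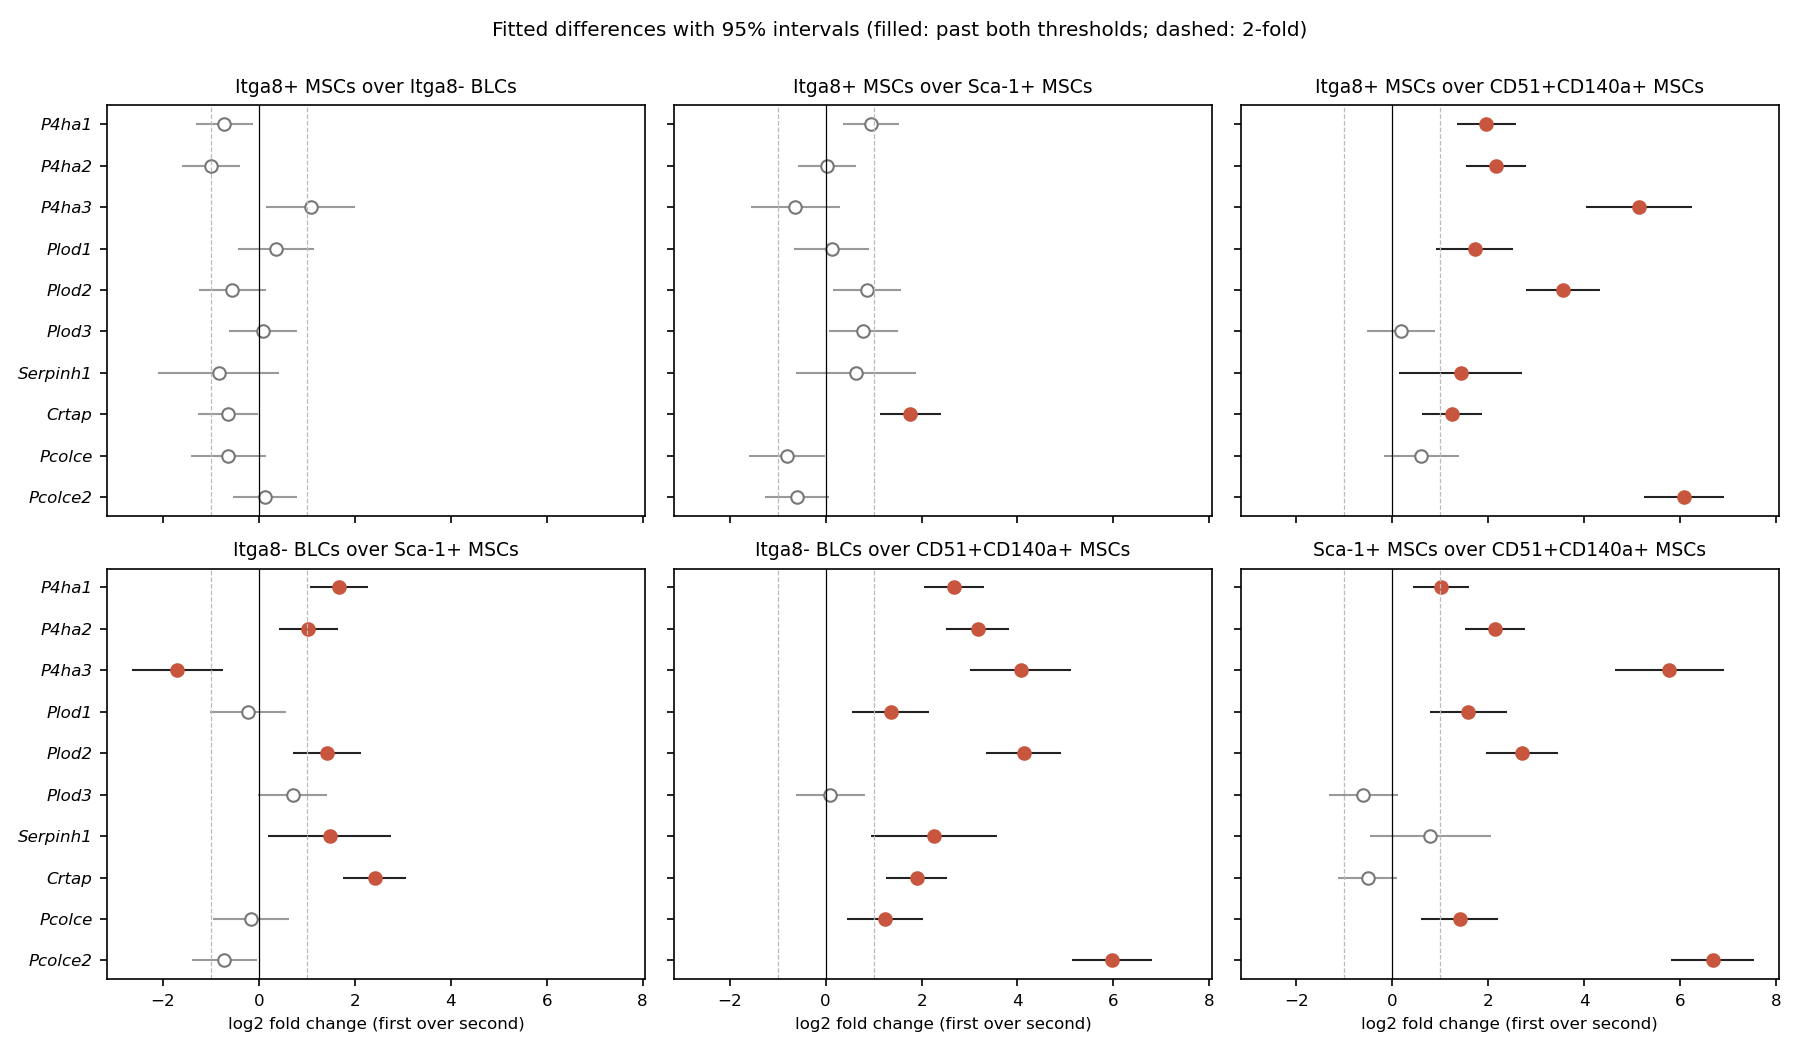
Log2 fold change of the 10 genes (first population over second, points) with 95% intervals (lines) in the 6 comparisons of populations, from 1 edgeR fit of 12 libraries. Filled points passed an adjusted p under 0.1 and a fold change above 2, which 8, 9 and 7 genes did against CD51+CD140a+ MSCs and none did between Itga8+ MSCs and Itga8- BLCs.

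The proteins above work with others in the endoplasmic reticulum, and 4 of those, singled out after their values had been seen because they bind a member directly, are given per library. P4hb, the protein disulphide isomerase that forms the second subunit of prolyl 4-hydroxylase, was at 2909, 1206 and 2694 CPM in Itga8+ MSCs, at 2899, 2557 and 2527 CPM in Itga8- BLCs, at 1263, 1415 and 1344 CPM in Sca-1+ MSCs and at 920, 838 and 1044 CPM in CD51+CD140a+ MSCs. It was called higher in Itga8+ MSCs (2.43-fold) and Itga8- BLCs (2.85-fold) than in CD51+CD140a+ MSCs, folds below those of P4ha1 in the same comparisons (3.89 and 6.41), although the difference between the genes was not tested. P3h1, the enzyme that Crtap binds, was at 617, 212 and 543 CPM in Itga8+ MSCs, at 474, 341 and 299.9 CPM in Itga8- BLCs, at 196, 216 and 218 CPM in Sca-1+ MSCs and at 129, 227 and 166 CPM in CD51+CD140a+ MSCs. Its call in Itga8+ over Sca-1+ MSCs (2.18-fold, adjusted p = 0.0662) was lost in 9 of the 21 alternatives, whereas that of Crtap was lost in none.

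Ppib, the cyclophilin of the same complex, was at 475, 1003 and 370 CPM in Itga8+ MSCs and at 624, 342 and 1041 CPM in Itga8- BLCs. It was at 200.2, 213 and 240 CPM in Sca-1+ MSCs and at 231, 232 and 240 CPM in CD51+CD140a+ MSCs, and all libraries of Itga8+ MSCs and Itga8- BLCs lay above these. Fkbp10, the prolyl isomerase that works with Plod2, was at 1339, 1407 and 1365 CPM in Itga8- BLCs, the narrowest group of the 4, and at 1094, 428 and 1105 CPM in Itga8+ MSCs. It was at 412, 539 and 536 CPM in Sca-1+ MSCs and at 379, 381 and 451 CPM in CD51+CD140a+ MSCs, and was called higher in Itga8- BLCs than in Sca-1+ MSCs (2.76-fold, adjusted p = 0.00965) and CD51+CD140a+ MSCs (3.39-fold, adjusted p = 0.00224) in all alternatives. The calls of Ppib and Fkbp10 in Itga8+ MSCs depended on single libraries: without Itga8+ replicate 2, Ppib was no longer called against Sca-1+ MSCs (a call also lost without Sca-1+ replicate 1 or 2) or CD51+CD140a+ MSCs, and without Itga8+ replicate 1 or 3, Fkbp10 (2.17-fold with all libraries) was no longer called against CD51+CD140a+ MSCs, nor by limma-trend or in the fit of the populations compared alone.

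**Figure D4:**
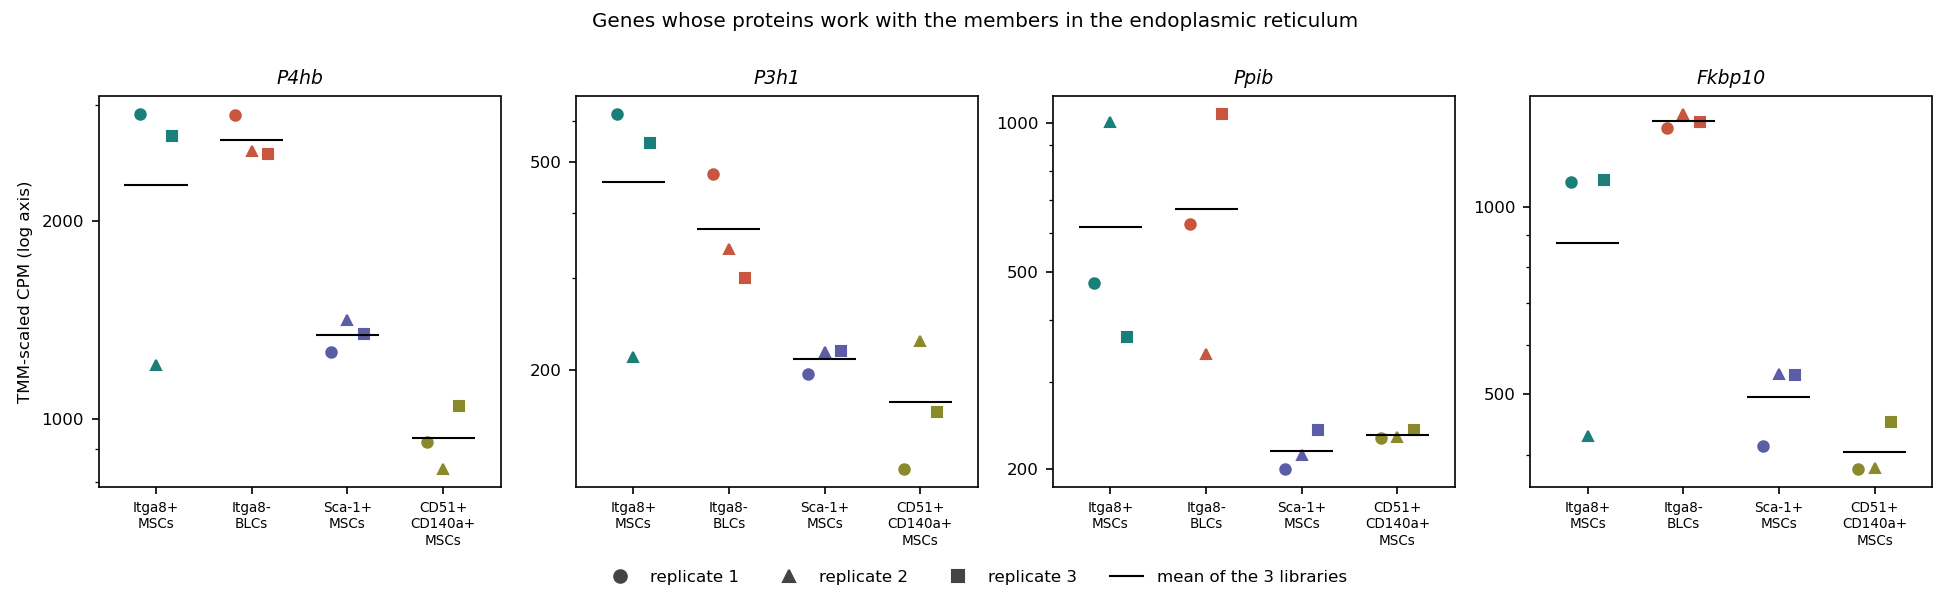
TMM-scaled CPM (log axis) of P4hb, P3h1, Ppib and Fkbp10 in each of the 12 libraries, with a marker shape for each replicate and a black bar at the mean of 3 libraries. The 3 Fkbp10 points of Itga8- BLCs lie at 1339 to 1407 CPM, above all others, and Itga8+ MSC replicate 2 (triangle) is the lowest of its group for P4hb, P3h1 and Fkbp10 and the highest for Ppib.

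Of a list of 14 such collagen partners in the endoplasmic reticulum, all tested, none was called between Itga8+ MSCs and Itga8- BLCs. In that comparison 1.66% of all genes were called higher and 2.16% lower in Itga8+ MSCs. Of the 14, 1 was lower in Itga8+ MSCs at an unadjusted p under 0.05, 1 by DESeq2, none by limma-trend, and 2 without Itga8+ replicate 2. Against CD51+CD140a+ MSCs 8 were higher in Itga8+ MSCs, 8 in Itga8- BLCs and 3 in Sca-1+ MSCs, beside 21.2%, 20.4% and 11.2% of all genes. The list medians were 1.11, 1.30 and 0.33 on the log2 scale, against 0.18, 0.09 and -0.0025 for all genes. Colgalt2, a collagen galactosyltransferase, rose most, from 4.98 ± 1.03 CPM (SD, n = 3) in CD51+CD140a+ MSCs to 86.2 ± 3.96 CPM in Sca-1+ MSCs (17.3-fold) and 189 ± 111 CPM in Itga8- BLCs (38.0-fold). Against Sca-1+ MSCs 6 were higher in Itga8- BLCs and 5 in Itga8+ MSCs, beside 14.5% and 12.9% of all genes, the last count becoming 8 without Itga8+ replicate 2, 2 without Sca-1+ replicate 1 and 3 in the fit of the populations compared alone. Sparc, a collagen-binding matrix protein, was at 102906 ± 70408 CPM in Itga8- BLCs against 12184 ± 1655 CPM in Sca-1+ MSCs (8.45-fold higher, or 5.11-fold without Itga8- replicate 3, its highest library). P3h2, a prolyl 3-hydroxylase of basement membrane collagen, went the other way and was 3.83-fold lower in Itga8- BLCs than in CD51+CD140a+ MSCs (adjusted p = 0.00948). P3h2 was also called lower in Itga8- BLCs than in Sca-1+ MSCs (2.83-fold, adjusted p = 0.0406), a call lost without Itga8- replicate 3 or Sca-1+ replicate 3, and lower in Itga8+ than in CD51+CD140a+ MSCs (2.16-fold, adjusted p = 0.0895), a call lost in 9 of the 12 fits without 1 library and in 3 other alternatives. It was the only one of the 14 called lower in these 3 comparisons, where 11.9%, 14.3% and 14.9% of all genes were (the last for Itga8- BLCs against CD51+CD140a+ MSCs).

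A further list held 17 general chaperones and stress genes of the endoplasmic reticulum, and the difference between the lists was not tested. None of the 17 was called by edgeR, DESeq2 or limma-trend between Itga8+ MSCs and Itga8- BLCs (3 had an unadjusted p under 0.05 in edgeR) or between Sca-1+ and CD51+CD140a+ MSCs (1 did). Of all genes, 1.66% were called higher and 2.16% lower in the first of these comparisons, and 11.2% and 9.3% in the second. The list median was 0.18 (Itga8- BLCs) and 0.41 (Itga8+ MSCs) over CD51+CD140a+ MSCs, beside 0.09 and 0.18 for all genes. In Itga8- BLCs 3 were higher than in CD51+CD140a+ MSCs, Atf4, a stress-response factor, by 4.03-fold and Manf by 3.35-fold (a call lost without Itga8- replicate 3 or any CD51+CD140a+ library, with library totals alone, with the replicate block and at an adjusted p under 0.05, with log2 differences down to 1.14 against 1.74), and 1, again Atf4, was higher than in Sca-1+ MSCs (4.09-fold), where 3 were higher without Itga8+ replicate 2. Beside these 3 and 1 of 17 genes, 20.4% and 14.5% of all genes were called higher in the same comparisons. Dnajb9, a co-chaperone, went the other way and was 2.28-fold lower in Itga8+ than in Sca-1+ MSCs (34.8 ± 2.70 against 79.4 ± 8.85 CPM, adjusted p = 0.00882) in all alternatives. The counts in Itga8+ MSCs ranged from 0 (without Itga8+ replicate 2, Sca-1+ replicate 2 or Sca-1+ replicate 3) to 6 (without Itga8+ replicate 3) against Sca-1+ MSCs, with 3 (beside 12.9% of all genes) in all libraries, 5 without Itga8+ replicate 1 and by DESeq2, 1 in the fit of the populations compared alone and at an adjusted p under 0.05, and 0 with the replicate block. Against CD51+CD140a+ MSCs they ranged from 1 (without Itga8+ replicate 2) to 6 (without Itga8+ replicate 1), again with 3 (beside 21.2% of all genes) in all libraries and 5 without Itga8+ replicate 3.

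Of 14 genes of procollagen export, 7 were higher in Itga8- BLCs than in CD51+CD140a+ MSCs and 5 higher than in Sca-1+ MSCs (20.4% and 14.5% of all genes). None was lower by edgeR, DESeq2, limma-trend or an unadjusted p under 0.05, where 14.9% and 11.9% of all genes were called lower. Kdelr2 and Kdelr3, receptors that return chaperones such as HSP47 to the endoplasmic reticulum, led both comparisons. Kdelr2 was at 594 ± 427 CPM (SD, n = 3) in Itga8- BLCs against 77.5 ± 6.18 CPM in Sca-1+ MSCs (7.67-fold, adjusted p = 0.00154) and 48.9 to 72.8 CPM in CD51+CD140a+ MSCs (9.89-fold, adjusted p = 0.00044), and Kdelr3 was 4.58-fold and 7.48-fold higher. Without Itga8- replicate 3, where it was at 1079 CPM, Kdelr2 was still called in both comparisons, at 4.54-fold and 5.84-fold. Creb3l1, a transcription factor of the secretory pathway in osteoblasts, was lower in Itga8+ MSCs than in Itga8- BLCs (32.4 ± 19.4 against 299.6 ± 63.0 CPM, 9.26-fold, adjusted p = 0.00245). In Itga8+ MSCs 5 of the 14 were higher than in CD51+CD140a+ MSCs (21.2% of all genes), or 8 without Itga8+ replicate 2.

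Among 8 tested procollagen proteinases, Adamts2, which removes the N-propeptide of type I collagen, was highest in CD51+CD140a+ MSCs. It was at 1681, 1911 and 2220 CPM in CD51+CD140a+ MSCs, at 902, 1044 and 942 CPM in Sca-1+ MSCs, at 369, 883 and 358 CPM in Itga8- BLCs and at 97.4, 26.8 and 160 CPM in Itga8+ MSCs. Adamts2 was 20.4-fold lower in Itga8+ than in CD51+CD140a+ MSCs (adjusted p = 0.000244) and 10.2-fold lower than in Sca-1+ MSCs (adjusted p = 0.00246), and 3.61-fold lower in Itga8- BLCs than in CD51+CD140a+ MSCs (adjusted p = 0.0223), in all alternatives. Without Itga8+ replicate 3 the first pair of differences was 30.9-fold and 15.8-fold. Adamts2 was 5.66-fold lower in Itga8+ MSCs than in Itga8- BLCs (adjusted p = 0.0338), a call lost without Itga8+ replicate 1 or Itga8- replicate 2 and in the fit of the populations compared alone, and it was 8.54-fold without Itga8+ replicate 3. Adamts3, another procollagen N-proteinase, went the other way, at 17.5, 10.2 and 50.7 CPM in Itga8+ MSCs against 4.08 to 4.83 CPM in Sca-1+ MSCs (6.03-fold higher, adjusted p = 0.00971) and 3.93 to 6.17 CPM in CD51+CD140a+ MSCs (5.39-fold higher, adjusted p = 0.00698). Both calls held in all alternatives, at 3.12-fold and 2.87-fold without Itga8+ replicate 3, and the 6.32 to 16.4 CPM of Itga8- BLCs overlapped with Itga8+ MSCs. Of the 8 genes, none was higher and 3 were lower in Itga8+ MSCs than in Itga8- BLCs (1.66% and 2.16% of all genes), with 1 lower without Itga8+ replicate 1 or Itga8- replicate 2 and none in the fit of the populations compared alone. None was higher by DESeq2 or limma-trend either, and 1 was at an unadjusted p under 0.05 in edgeR and 1 was called without Itga8+ replicate 2. Against Sca-1+ MSCs 1 was higher and 3 lower in Itga8+ MSCs (12.9% and 8.89% of all genes), with 1 lower without Itga8+ replicate 1 or any Sca-1+ library, in the fit of the populations compared alone, with the replicate block and at an adjusted p under 0.05. Against CD51+CD140a+ MSCs 2 were higher and 2 lower (21.2% and 14.3% of all genes), with 1 higher when Itga8+ replicate 2 or any CD51+CD140a+ library was left out, and in those 3 alternatives, by DESeq2 and under the filter of 10 counts in 3 libraries. The higher gene other than Adamts3 was near the floor, at 0.0495 to 0.571 CPM in Itga8+ MSCs and 0 CPM in every CD51+CD140a+ library. It passed the filter only through Itga8+ MSCs, so that call rests on few reads.

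Bmp1, which cleaves the C-propeptide and is the enzyme that Pcolce and Pcolce2 enhance, was at 489, 790.5 and 596.6 CPM in Itga8- BLCs, at 355, 387 and 264 CPM in Sca-1+ MSCs, at 183.5, 161 and 238 CPM in CD51+CD140a+ MSCs and at 153, 35.6 and 203 CPM in Itga8+ MSCs. It was higher in Itga8- BLCs than in CD51+CD140a+ MSCs (3.22-fold, adjusted p = 0.0229) in all alternatives. It was also lower in Itga8+ MSCs than in Itga8- BLCs (4.79-fold, adjusted p = 0.036), a call lost without Itga8- replicate 2 and in the fit of the populations compared alone, and than in Sca-1+ MSCs (2.56-fold, adjusted p = 0.0806), a call lost in 10 of the 21 alternatives, among them the fits without Itga8+ replicate 1 or 2 or any Sca-1+ library.

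The fibrillar collagens are the main substrates of these enzymes. Summed over 11 fibrillar collagen genes, the level was 31249, 2821 and 57267 TPM in Itga8+ MSCs, 67486, 136251 and 17270 TPM in Itga8- BLCs, 31987, 36715 and 31379 TPM in Sca-1+ MSCs and 2890, 2107 and 3406 TPM in CD51+CD140a+ MSCs. Itga8+ replicate 2 was inside the range of CD51+CD140a+ MSCs. The collagen behind the sum was not the same: Col2a1 gave 25065, 2040 and 42676 TPM of it in Itga8+ MSCs, Col1a1 with Col1a2 gave 52955, 105999 and 14849 TPM in Itga8- BLCs, and Col3a1 gave 17193, 19032 and 15321 TPM in Sca-1+ MSCs. Of the 11 genes, 8 (Itga8- BLCs), 6 (Itga8+ MSCs) and 5 (Sca-1+ MSCs) were called higher than in CD51+CD140a+ MSCs, beside 20.4%, 21.2% and 11.2% of all genes, and the last count was 3 when any 1 of the Sca-1+ or CD51+CD140a+ libraries was left out and at an adjusted p under 0.05. Col5a3, a chain of type V collagen, was lower in Itga8- BLCs than in CD51+CD140a+ MSCs (17.1 ± 16.5 against 128 ± 52.5 CPM, 7.47-fold, adjusted p = 0.067), a call lost without Itga8- replicate 1 or 3, without CD51+CD140a+ replicate 1 or 3, with the replicate block and at an adjusted p under 0.05. Without Itga8- replicate 2 the difference of Col5a3 was 16.2-fold.

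Set against that sum, the order of the members turned over for several genes. Serpinh1 per 1000 TPM of fibrillar collagen was 831, 1358 and 801 in CD51+CD140a+ MSCs, 374, 292 and 130 in Itga8+ MSCs, 239, 63.3 and 280 in Itga8- BLCs and 146, 116 and 125 in Sca-1+ MSCs. The CD51+CD140a+ libraries were above all 9 others in this ratio and below 8 of them in level. Plod3 followed, with 54.3, 62.2 and 48.8 in CD51+CD140a+ MSCs against 1.14 to 19.9 elsewhere, whereas for Plod2 the 11.3 to 16.7 of CD51+CD140a+ MSCs lay within the 4.98 to 57.8 of the other libraries. P4ha3 was lowest by this measure in Itga8- BLCs, at 0.253 to 0.850, against 0.576 to 2.05 in CD51+CD140a+ MSCs, 1.63 to 16.0 in Itga8+ MSCs and 3.98 to 4.26 in Sca-1+ MSCs, and the CD51+CD140a+ libraries overlapped with both Itga8- BLCs and Itga8+ MSCs. Pcolce2 was at 1.54 to 2.62 in CD51+CD140a+ MSCs, which overlapped with the 1.70 to 14.1 of Itga8- BLCs and lay below the 4.30 to 115 of Itga8+ MSCs and the 14.8 to 17.1 of Sca-1+ MSCs. Itga8+ replicate 2 gave the highest ratio of its group for all genes but Serpinh1, and Itga8- replicate 3 for all but P4ha3. Another choice of collagen changed part of this order: per 1000 TPM of Col1a1 and Col1a2 alone, Serpinh1 was at 922 to 2440 in Itga8+ MSCs against 1364 to 2012 in CD51+CD140a+ MSCs, and Plod3 at 29.2 to 147.5 against 83.2 to 92.2, so that the CD51+CD140a+ libraries were no longer the highest. For Plod3 this rested on Itga8+ replicate 2 alone. Itga8+ replicates 1 and 3 were at 34.1 and 29.2, below every CD51+CD140a+ library. The ratios are descriptions and were not tested.

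**Figure D5:**
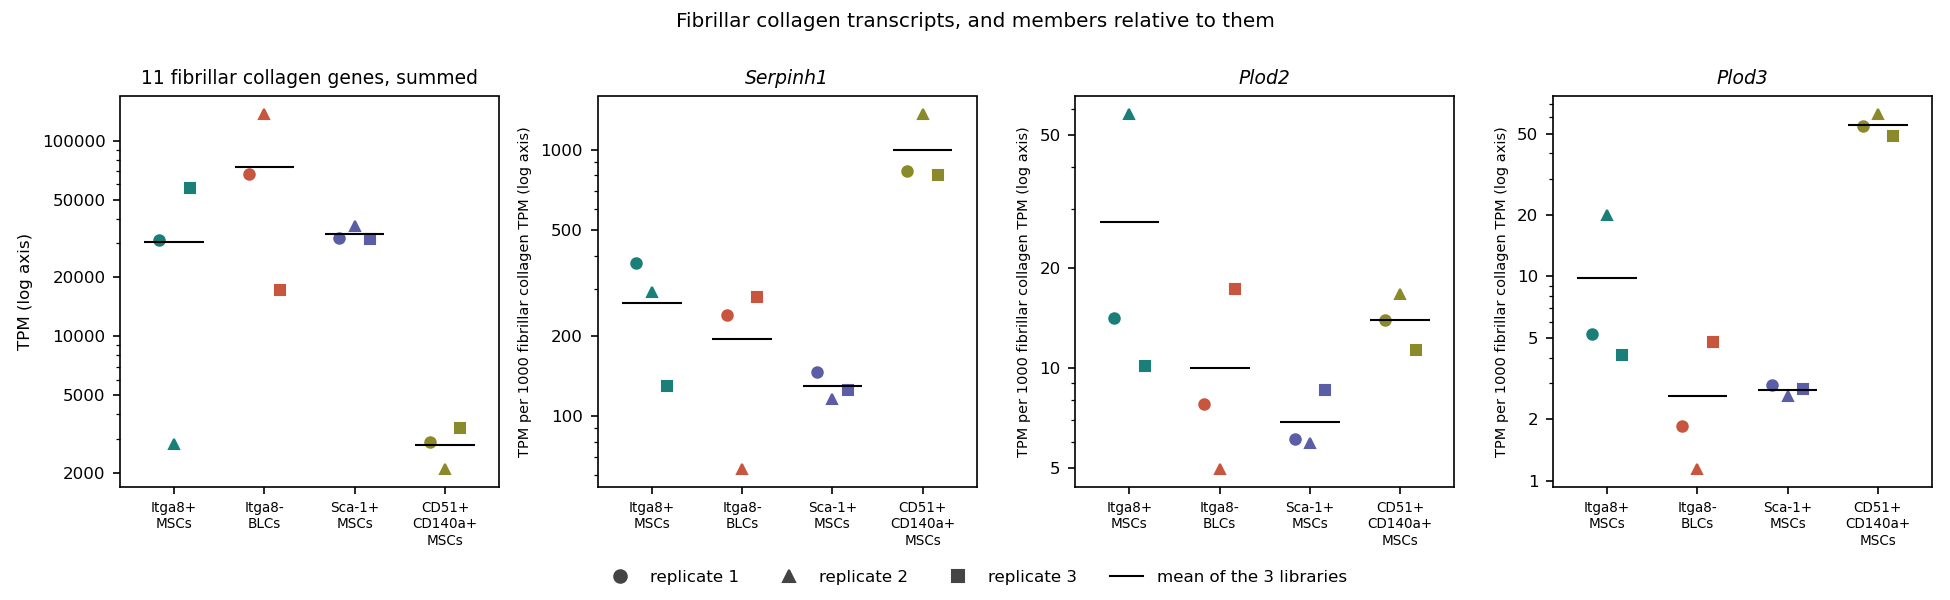
Summed TPM of 11 fibrillar collagen genes, and TPM of Serpinh1, Plod2 and Plod3 per 1000 TPM of fibrillar collagen (log axes), in each of the 12 libraries, with a marker shape for each replicate and a black bar at the mean of 3 libraries. CD51+CD140a+ MSCs are at 2107 to 3406 TPM of collagen, where Itga8+ MSC replicate 2 (triangle) also lies, and have the highest ratios to this sum for Serpinh1 and Plod3.

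The genes whose pattern over the 12 libraries was most like that of a member were found by the Pearson correlation of log2(CPM + 1) among 9149 genes with a mean of at least 10 CPM. The libraries fall into 4 populations, so these values are descriptions and carry no p. The nearest to P4ha1 were Rftn2 (r = 0.982) and Sar1a (0.981), a small GTPase of the vesicles that leave the endoplasmic reticulum, and the nearest to Plod2 were Fam20c (0.989), a kinase of secreted matrix proteins, and Actr3 (0.987). Next to these came Gm38391 (0.984), the gene that overlaps Plod2 on the opposite strand, with mean levels of 46.0 CPM in Itga8+ MSCs, 74.0 CPM in Itga8- BLCs, 26.2 CPM in Sca-1+ MSCs and 7.43 CPM in CD51+CD140a+ MSCs, and whether it shares reads with Plod2 was not tested. P4ha3 lay nearest to Tmem154 (0.989) and Mtx1 (0.986), Plod1 to Endod1 (0.988) and Txndc5 (0.982), a disulphide isomerase, and Plod3 to the matrix gene Emilin1 (0.970). Serpinh1 lay nearest to C1qtnf6 (0.983) and Tgfb1 (0.950), Crtap to Tmem39a (0.988) and Odc1 (0.985), and P4ha2 to C130050O18Rik and Adipor1 (both 0.972). Pcolce2 had the closest match of all, Tmbim1 (0.995), whereas Pcolce had Smim14 (0.968). Among the members themselves the highest r was that of P4ha3 with Pcolce2 (0.95), followed by Plod2 with P4ha2 (0.94), and the lowest was that of Plod3 with Pcolce (-0.50).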

How the data were processed

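RNA-seq of 12 libraries, 3 for each of 4 populations grouped by the labels, was analysed from gene tables. Per the labels, RNA from 2000 cells was amplified with SMART-Seq v4 and made into Nextera XT libraries. The authors deposited raw read counts per Ensembl gene, not normalized. The submitters' processing notes name Trimmomatic 0.38, HISAT2 2.1.0, SAMtools 1.9, featureCounts 1.6.3 and build mm10, whereas the study's methods name TopHat and Bowtie2, and the annotation release and strand setting are not given in the sources used here. Counts were scaled by TMM, genes reaching 0.5 CPM in any 1 library were kept, and 1 quasi-likelihood model of all 12 libraries was fitted in edgeR 4.0.16 (R 4.3.3), from which 6 pairwise comparisons were drawn, with Benjamini-Hochberg adjustment over 18648 genes. A gene was called at an adjusted p under 0.1 and a fold change above 2. The fit was run on counts simulated with the dispersions of these same libraries, which does not test how it handles an outlying library. TPM used exon lengths from GENCODE M21 (GRCm38), which lacks 259 of the identifiers. With 3 libraries against 3, an exact two-sided permutation test cannot go below p = 0.1 and was not used for calls.

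The 21 alternatives were DESeq2 1.42.0, limma-trend (limma 3.58.1), RLE scaling, scaling by totals only, a filter of only 1 count, a filter of 10 counts in 3 or more libraries, a model holding just the pair of populations compared, a replicate block, an adjusted p under 0.05, and leaving out each of 12 libraries. The members and gene lists were chosen with earlier results of these data known. Besides the 10 members, the text names from each list and comparison at most the 2 most positive and 2 most negative called genes with at least 10 CPM in the higher population, sort and cell type markers, and the 3 genes most like each member. P4hb, P3h1, Ppib, Fkbp10 and Bmp1 were singled out after their values were seen.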

Additional observations from a re-analysis of the deposited data

How the results depend on the processing

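Of the 31 calls, 25 were made in all 21 alternatives, and none changed direction. The 6 that were lost in some are those of Serpinh1 in Itga8+ over CD51+CD140a+ MSCs and in Itga8- BLCs over Sca-1+ MSCs, of P4ha1 in Sca-1+ over CD51+CD140a+ MSCs, of P4ha2 in Itga8- BLCs over Sca-1+ MSCs, and of Plod1 and Pcolce in Itga8- BLCs over CD51+CD140a+ MSCs. The cause was not tested. The number of the 10 genes called between Itga8+ and Sca-1+ MSCs was 1, and ranged from 1 to 6 when 1 library was left out. Deviations of same-numbered libraries from their group means correlated at -0.58 to 0.20. With 3 libraries per population, this cannot show whether the replicate numbers mark shared mice or days. With a replicate block 0, 1, 7, 5, 9 and 7 of the 10 genes were called in the 6 comparisons, against 0, 1, 8, 6, 9 and 7 without it, and Serpinh1 was the gene lost in Itga8+ over CD51+CD140a+ MSCs (log2 1.18, adjusted p = 0.184) and in Itga8- BLCs over Sca-1+ MSCs (1.39, adjusted p = 0.137). Of 128 values of family shares, 107 moved by less than 1 SD of the libraries when 1 library was left out or raw counts replaced TPM. Of 40 mean ratios to fibrillar collagen, 29 moved by more than that when type I collagen replaced the sum. With a pseudocount of 4 in place of 1 the 3 genes most like a member changed for 6 of 10 members, and 219 of 1764 list counts moved by over 1.5 times or to or from 0. The depth of over 17580677 counts leaves counting error small beside the spread between libraries.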

Other observations

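Prolyl and lysyl hydroxylases belong to the 2-oxoglutarate oxygenases, and 9 further members of that class and transporters of vitamin C, their cofactor, were tested. No gene of this list was called between Itga8+ MSCs and Itga8- BLCs by edgeR, DESeq2 or limma-trend, and none had an unadjusted p under 0.05 in edgeR. Of all genes, 1.66% were called higher and 2.16% lower there. Against CD51+CD140a+ MSCs 2 were higher and 2 lower in Itga8+ MSCs (21.2% and 14.3% of all genes). In most fits without 1 library only 1 was lower. The counts were 2 and 1 in Itga8- BLCs (20.4% and 14.9%) and 2 and 1 in Sca-1+ MSCs (11.2% and 9.3%). Egln3, a prolyl hydroxylase of hypoxia-inducible factors, had its highest level, 23.3 ± 7.85 CPM (SD, n = 3), in the Sca-1+ libraries, against 3.74 ± 1.35 CPM in Itga8+ MSCs, 3.59 ± 0.993 CPM in Itga8- BLCs and 1.45 ± 0.272 CPM in CD51+CD140a+ MSCs, and its 16.1-fold difference from the last (adjusted p = 5.23e-05) held in all 21 alternatives. Asph, which hydroxylates aspartate, was higher in CD51+CD140a+ MSCs (403 ± 19.6 CPM) than in the other 3 populations, by 3.53-fold to 4.03-fold, also in all alternatives (6.00-fold over Itga8+ MSCs without Itga8+ replicate 3). P4htm went the other way. It was 2.77-fold higher in Itga8+ MSCs and 3.07-fold higher in Itga8- BLCs than in CD51+CD140a+ MSCs, in all alternatives.

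Of 15 genes commonly induced by hypoxia, a group that is known to include collagen prolyl hydroxylases in many cells, 14 were tested, and they did not run one way. Slc2a1, the main glucose transporter, was 5.36-fold higher in Itga8- BLCs than in Sca-1+ MSCs (adjusted p = 0.00022) and 4.81-fold higher than in CD51+CD140a+ MSCs. Pgk1, a glycolytic enzyme, was 4.63-fold higher in Itga8+ than in CD51+CD140a+ MSCs (124 ± 35.6 against 26.8 ± 3.30 CPM, SD, n = 3). Vegfa, an angiogenic growth factor, went the other way, at 611 ± 69.2 CPM in CD51+CD140a+ MSCs against 104 ± 72.4 CPM in Itga8+ MSCs (5.90-fold lower, adjusted p = 0.00656) and 71.1 ± 26.4 CPM in Sca-1+ MSCs (8.59-fold lower, adjusted p = 0.00297). Against CD51+CD140a+ MSCs 6 of the 14 were higher and 2 lower in Itga8+ MSCs, beside 21.2% and 14.3% of all genes. The median log2 difference there was 0.72 beside 0.18 for all genes. In Itga8- BLCs 5 were higher and 2 lower than in CD51+CD140a+ MSCs (20.4% and 14.9% of all genes, median 0.61 beside 0.09). Against Sca-1+ MSCs 5 were higher and 1 lower in Itga8- BLCs (14.5% and 11.9% of all genes, median 0.83 beside 0.12). With 1 library left out, the higher counts were 3 to 5 in both, and the lower counts 1 to 2 and 0 to 3. Whether hypoxia played a part in the levels of the collagen hydroxylases was not tested.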
